A study of Mus musculus with 563 samples.

Results

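The 10 genes Il1r1, Il1rap, Myd88, Tnfrsf1a, Tnfrsf1b, Nfkb1, Rel, Rela, Nfkbia and Tnfaip3 encode receptors for interleukin 1 (IL-1) and tumour necrosis factor (TNF), the adaptor behind the IL-1 receptor, 3 NF-kB subunits and 2 inhibitors of the pathway. They were taken by name out of 46041 nuclear genes, with no threshold on their values but with earlier results of these data known. All 10 were above the level asked of a gene in a comparison, as were 10721 genes in all. Their reads were followed in single hematopoietic stem cells (HSCs) from old and young mice. IL-1 brings the receptor IL1R1 together with its accessory protein, and MYD88 carries the signal on to kinases. TNF signals through TNFR1, found on most cell types, and TNFR2, found mainly on blood and endothelial cells. Both routes activate the IKK kinases, which mark the inhibitor IkB alpha for destruction and free NF-kB dimers to enter the nucleus, where they switch on inflammatory genes and their own inhibitors. In HSCs, IL-1 and TNF are known as signals of infection, inflammation and ageing marrow.

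The cells came from bone marrow of mice of the Gfp-Lc3 genotype, a transgene that joins green fluorescent protein to the autophagosome protein LC3, and every group carries it. All groups were isolated at steady state, and each deposited sample is 1 cell read with a modified Smart-seq2 protocol, which reads along the whole transcript. The groups were old oHSC_LO, oHSC_MID and oHSC_HI cells, called LO, MID and HI below, and young yHSC cells. The labels give age only as old or young, name no animal and do not say what LO, MID and HI rank, although the design text mentions recording of the reporter level at the sort. The 2 deposited count tables together hold 563 cells, and 533 passed the filter on depth, gene number and mitochondrial share. In the first and second table these were 65 and 71 LO, 68 and 66 MID, 68 and 61 HI and 63 and 71 young cells. With no animal named, each group counted as 1 sample, so no test was made, and the spread given is that between the tables beside the counting error.

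Summed per group and table, the cells gave 18580222 to 25382151 nuclear gene reads, and levels are in counts per 1000000 of those reads (CPM). All 12 HSC marker genes were read, and every cell brought to 100000 reads had at least 3 of them, in each group. Cells with at least 8 of 29 genes of the G2 and M phases made up 26.2% and 41.4% of HI cells in the 2 tables, 3.51% to 7.69% of LO and MID cells, and 11.9% and 15.9% of young cells. Whereas 57 to 62 cells of every other group and table had 20 Y-linked reads, 0 of the 71 young cells of the second table did, and 71 had 20 Xist reads, so that age and sex cannot be told apart in that table. Marker lists of 2 other cell types moved with age in all sums. The platelet list (8 of 8 genes in the tables, none at 0 reads) summed to 590 to 870 CPM in old and 223 to 314 CPM in young cells, led by Vwf and Itga2b. Gp9 was at 63.2 to 70.6 CPM in old groups and 64.2 CPM in young cells. Pf4, Gp1ba and Gp1bb were also read, each higher in the 3 old group means, and Gp6 was at or near 0. Ppbp went the other way at a low level, with 0.90, 0.12 and 0.97 CPM in LO, MID and HI, against 2.37 CPM in young cells. The dendritic list (8 of 8) summed to 683 to 1435 CPM in old and 340 to 412 CPM in young cells, led by Cd74 and H2-Ab1. Of its more specific genes, Clec9a had 30.3, 12.4 and 17.5 CPM in LO, MID and HI, against 5.77 CPM in young cells. Irf8 had 4.47, 4.85 and 19.1 CPM in LO, MID and HI, against 12.3 CPM in young cells. Bst2 had 71.1, 70.7 and 54.4 CPM, against 54.9 CPM in young cells. Xcr1, Siglech and Itgax were at or near 0. The part of either list in the differences below was not tested.

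Before single genes, the levels can be ranked. Per kilobase of exon, the mean over the 8 sums was highest for Nfkbia, at 159 CPM per kilobase. Rela with 59.97, Tnfrsf1a with 55.2 and Myd88 with 38.5 CPM per kilobase followed. Tnfrsf1b had 21.9 and Nfkb1 16.9 CPM per kilobase. Rel, Il1r1, Tnfaip3 and Il1rap were far lower, at 3.39, 2.48, 1.91 and 1.29 CPM per kilobase. Thus the TNF receptors and the core NF-kB genes were read in most cells, and both chains of the IL-1 receptor and Rel in a minority.

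**Figure D1:**
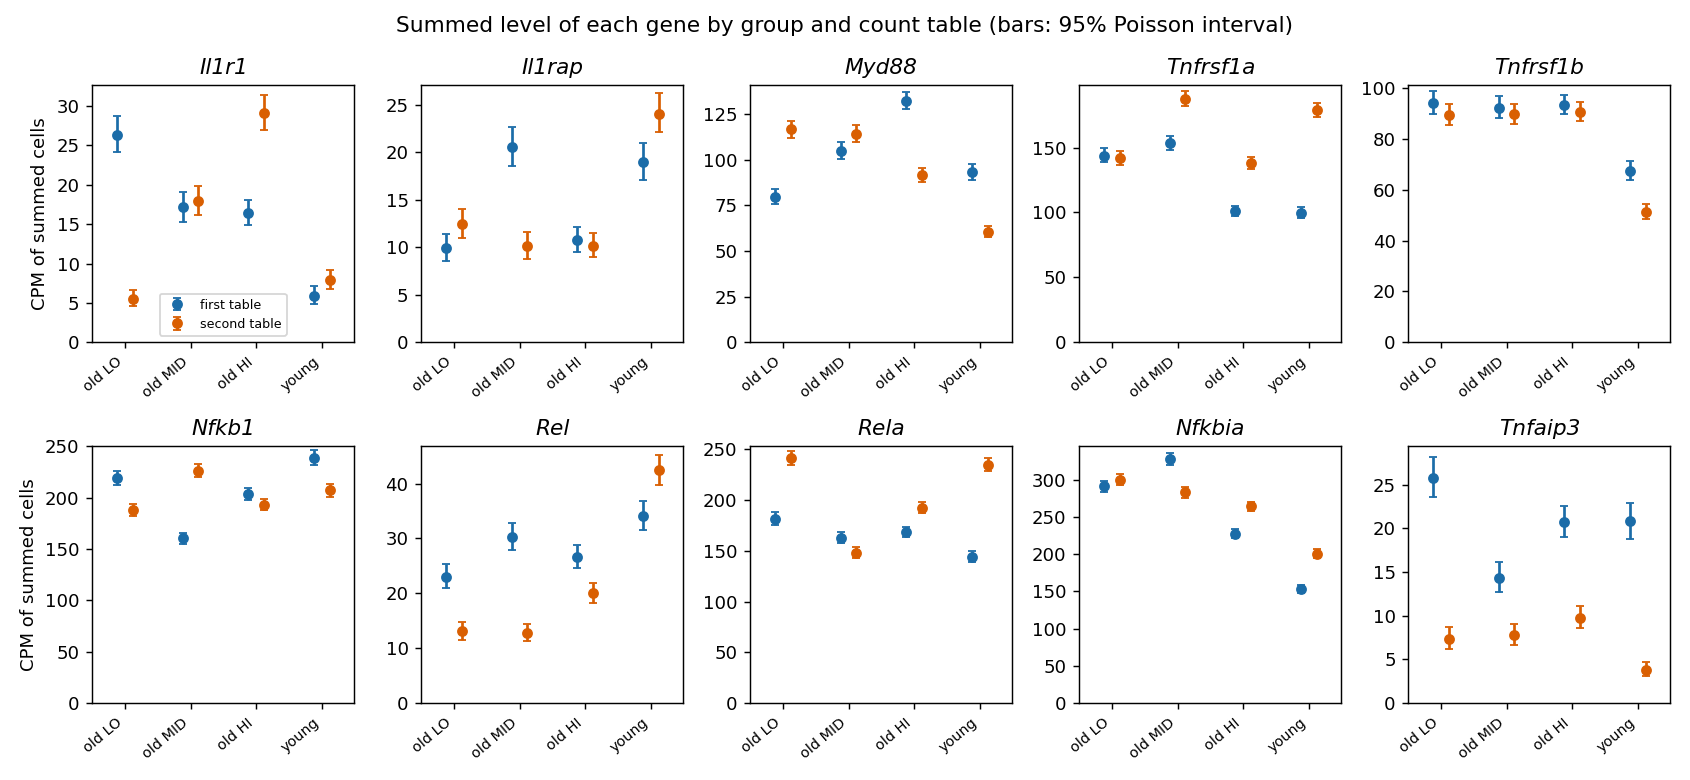
Level of each of the 10 genes, in CPM of summed cells on a linear axis from 0, in old LO, MID and HI and in young cells, in the first (blue) and second (orange) deposited table. Bars are 95% Poisson intervals of the reads; Tnfrsf1b and Nfkbia lie above the young points in all 6 old sums, Rel lies below them in all 6, and the Il1r1 points of LO lie at 26.4 and 5.52 CPM.

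Across ages, the highest old minus young differences in level were those of Il1r1, Nfkbia and Tnfrsf1b, and the lowest those of Rel and Il1rap, and none of them met the size rule over all old cells. That rule asked for a difference of at least 1 on the scale of log2(CPM + 1), and of at least 0.58 with the same sign in each table. The group with the higher level also had to reach 20 CPM, with reads in 20% or more of its cells in both tables and with no single cell holding over 20% of the reads. It was met upwards by 0 of the 10 genes, beside 140 of 10721 genes or 1.31%, and downwards by 0, beside 92 genes or 0.858%. The 10 differences ran between -0.90 and 1.18 with a median of 0.26, against a median of -0.00 for all genes, and 6 were positive. All 6 old sums lay above both young sums for 2 of the 10 genes, Tnfrsf1b and Nfkbia, as they did for 6.92% of all genes. All 6 lay below for 1, Rel, as for 5.82% of all genes.

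**Figure D2:**
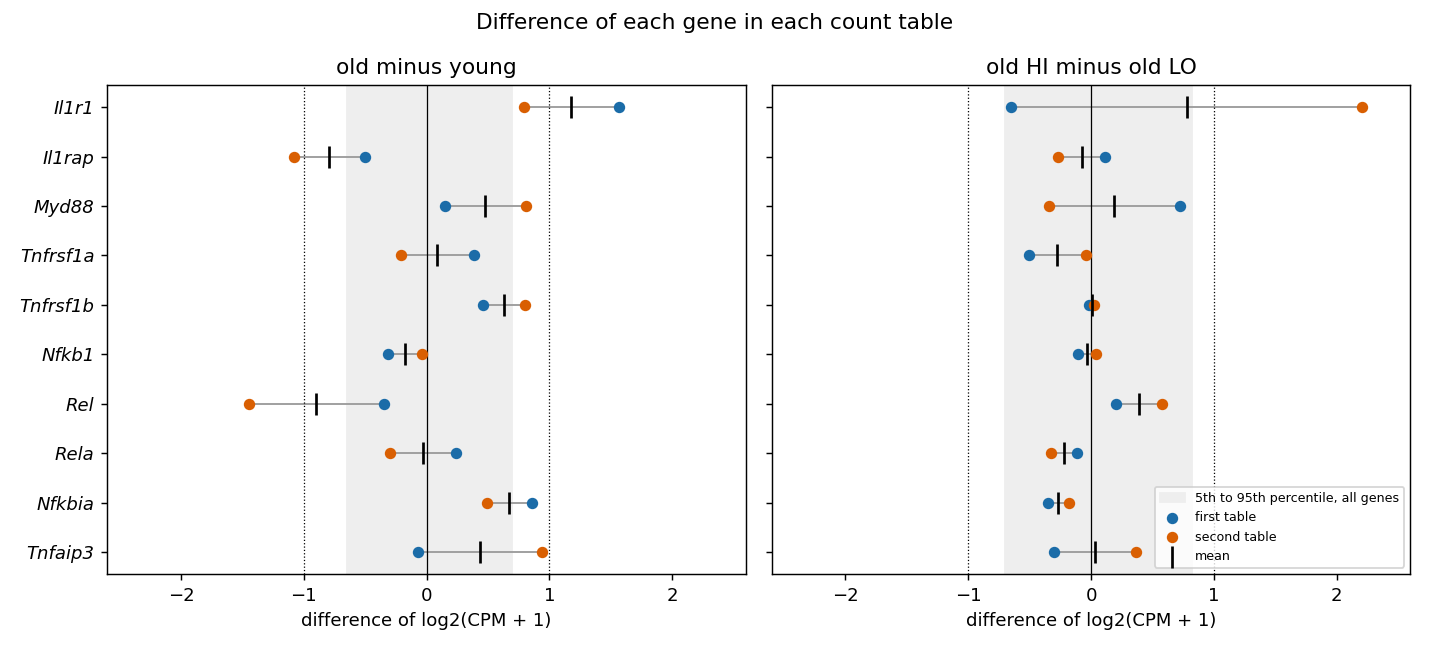
Old minus young (left) and old HI minus old LO (right) differences in log2(CPM + 1) for each gene in the first table (blue), in the second (orange) and their mean (black tick). The grey band spans the 5th to 95th percentile of all 10721 genes and dotted lines mark 1 and -1; Il1r1 had the largest old minus young mean of the 10, and its HI minus LO values were -0.65 and 2.21.

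Il1r1 encodes the signalling chain of the IL-1 receptor and spans 40225080 to 40317257 on the plus strand of chromosome 1 (GRCm38, GENCODE M21). In the first table LO had 26.4, MID 17.1 and HI 16.4 CPM, against 5.94 CPM in young cells. In the second table LO had 5.52, MID 17.9 and HI 29.1 CPM, against 7.94 CPM in young cells. Thus 5 of 6 old sums lay above the young sum of their table, and the exception was LO of the second. Averaged over the old groups, Il1r1 was 1.18 higher on the log2(CPM + 1) scale, with a 95% counting half-width of 0.16, and 1.56 and 0.79 in the 2 tables. This lay at percentile 98.2 of all genes, but the old mean of 18.7 CPM was under the 20 CPM asked for.

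Taken group by group against the same young cells, Il1r1 differed by 0.76 in LO, 1.23 in MID and 1.54 in HI. HI minus young was the only one of the comparisons with young cells in which a member met the rule, with 1.33 and 1.75 in the 2 tables. There 1 of 10 genes met it upwards and 0 downwards, beside 1.95% and 1.38% of all genes. In LO minus young 0 of 10 met it either way, beside 2.15% and 1.44%, and in MID minus young also 0 of 10, beside 1.68% and 1.11%. Without the 1 cell with most reads in each group and table the HI minus young difference was 1.77 but the rule was no longer met, and a pseudocount of 10 gave 0.93. Among cells with Y-linked reads in the first table, which compares cells of 1 sex, old minus young was 1.67.

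The reads of Il1r1 came from a minority of cells. At 100000 reads a cell, 24.4% of LO (95% interval 17.1 to 32.9), 25.98% of MID (18.6 to 34.5) and 33.3% of HI cells (25.1 to 42.4) had a read, against 10.9% of young cells (6.11 to 17.7). The share was higher in each old group than in the young group of the same table, including LO of the second table with 16.7% against 7.25%. The median cell had 0 CPM in every group, and the highest cell of LO reached 311, of MID 201 and of HI 325 CPM, against 135.3 CPM among young cells. Among cells not counted as cycling, with fewer than 8 of the G2 and M phase genes, 27.4% of old and 9.09% of young cells had a read, and old minus young was 1.64.

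Il1rap, the accessory chain that IL-1 and IL-33 receptors need to signal (chromosome 16, 26581704 to 26730117, plus strand), had a lower level in old cells. In the first table LO had 9.91, MID 20.6 and HI 10.8 CPM, against 18.9 CPM in young cells. In the second table LO had 12.4, MID 10.1 and HI 10.2 CPM, against 24.1 CPM in young cells. Only MID of the first table was above its young sum. Old minus young was -0.79 ± 0.11 (95% counting half-width), with -0.50 and -1.08 in the tables. The shares of cells differed less than the levels: 22.8% of LO, 31.5% of MID, 29.3% of HI and 32.8% of young cells had a read, with intervals that overlap. Before thinning, kept cells with an Il1rap read had LO, MID and HI medians of 11.9, 13.1 and 15.5 CPM, against 31.6 CPM in young cells. Depth was not equal there, and 30.9% of LO, 42.5% of MID, 39.5% of HI and 38.1% of young cells had a read. Of 11360 exon bases, 552 are shared with the antisense gene Gm20319, and whether counting used strand is not given in the sources used here.

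Both chains were rarely read in the same cell. Reads of Il1r1 and Il1rap together were found in 4.88% of LO, 5.51% of MID and 11.4% of HI cells, against 4.69% of young cells, which were 6, 7, 14 and 6 cells. The HI interval of 6.36% to 18.4% overlaps that of young cells, 1.74% to 9.92%. Among old cells, Il1rap was read in 25.96% of the cells with Il1r1 and in 28.6% of the 269 without it. The direction differed between groups. The shares with and without Il1r1 were 20% and 23.7% in LO and 21.2% and 35.1% in MID. They were 34.1% and 26.8% in HI, and 42.9% (of 14 cells) and 31.6% in young cells. In 17 old cells (4.56%) and 4 young cells (3.12%) the adaptor Myd88 was read too.

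**Figure D3:**
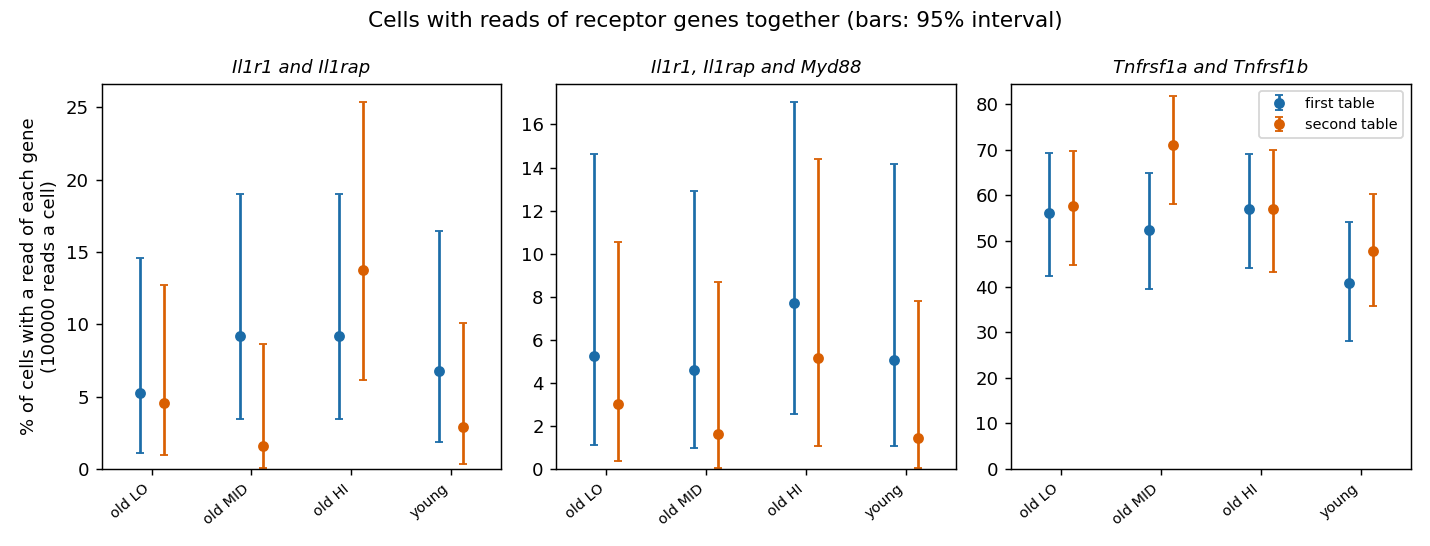
Share of cells, at 100000 reads a cell, with reads of both IL-1 receptor chains (left), of these and Myd88 (middle) and of both TNF receptors (right), by group and table. Bars are exact 95% intervals; both TNF receptors were read in 52.3% to 70.97% of old and 40.7% and 47.8% of young cells, and the IL-1 receptor pair in at most 13.8% of the cells of a sum.

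Myd88 encodes the adaptor that links IL-1 and most Toll-like receptors to the IRAK kinases (chromosome 9, 119335934 to 119341411, minus strand). It had 79.9, 104.9 and 132.5 CPM in LO, MID and HI of the first table, against 93.4 CPM in young cells. It had 116.6, 114.2 and 91.6 CPM in LO, MID and HI of the second table, against 60.6 CPM in young cells. Old and young sums overlapped, and old minus young was 0.15 in the first table and 0.81 in the second. The share of cells with a read was 52.03% in LO, 62.2% in MID and 70.7% in HI, against 44.5% in young cells, with counting intervals of 61.8 to 78.6 for HI and 35.8 to 53.6 for young cells. By table it was 70.8% and 70.7% in HI, against 47.5% and 42.03% in young cells. Intervals over cells cover counting error only and not the spread between animals. Within HI the share was 70.7% among cycling and 70.7% among other cells, and within young cells it was 83.3% among 18 cycling and 38.2% among 110 other cells. Myd88 shares 290 of 2576 exon bases with Acaa1a on the other strand.

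The TNF receptors differed from each other. Tnfrsf1b, which encodes TNFR2 (chromosome 4, 145213463 to 145246870, minus strand), had 94.4, 92.4 and 93.5 CPM in LO, MID and HI of the first table, against 67.6 CPM in young cells. In the second table it had 89.6, 89.9 and 90.9 CPM in LO, MID and HI, against 51.4 CPM in young cells. The 6 old sums lay close together and all above the young ones. Old minus young was 0.63 ± 0.06 (95% counting half-width), with 0.46 and 0.80 in the tables, and it was 0.54 in the Y-linked cells of the first table. A read was found in 78.05% of LO, 71.7% of MID and 71.5% of HI cells, against 58.6% of young cells. HI minus LO was 0.00. Tnfrsf1b was lower in cycling than in other cells at both ages, with 38.2 CPM in cycling and 100.4 CPM in other old cells, and 31.1 CPM in cycling and 61.4 CPM in other young cells.

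Tnfrsf1a, which encodes TNFR1, the receptor with a death domain (chromosome 6, 125349362 to 125362484, plus strand), showed no steady difference with age. It had 100.9 to 187 CPM in old and 99.9 to 179 CPM in young cells, and old minus young was 0.38 in the first table and -0.21 in the second. MID was the highest group at 170.5 CPM and HI the lowest at 119.4 CPM. LO was second at 142.8 CPM. Of neighbouring groups in this order, only MID and LO had ranges over the tables that did not overlap. These were 153.5 and 187 CPM in MID and 143.8 and 141.8 CPM in LO. Reads of both TNF receptors were found in 58.4% of old cells (53.3 to 63.5) and 44.5% of young cells (35.8 to 53.6). At least 1 of the 2 was read in 93.6% of old and 89.1% of young cells.

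**Figure D4:**
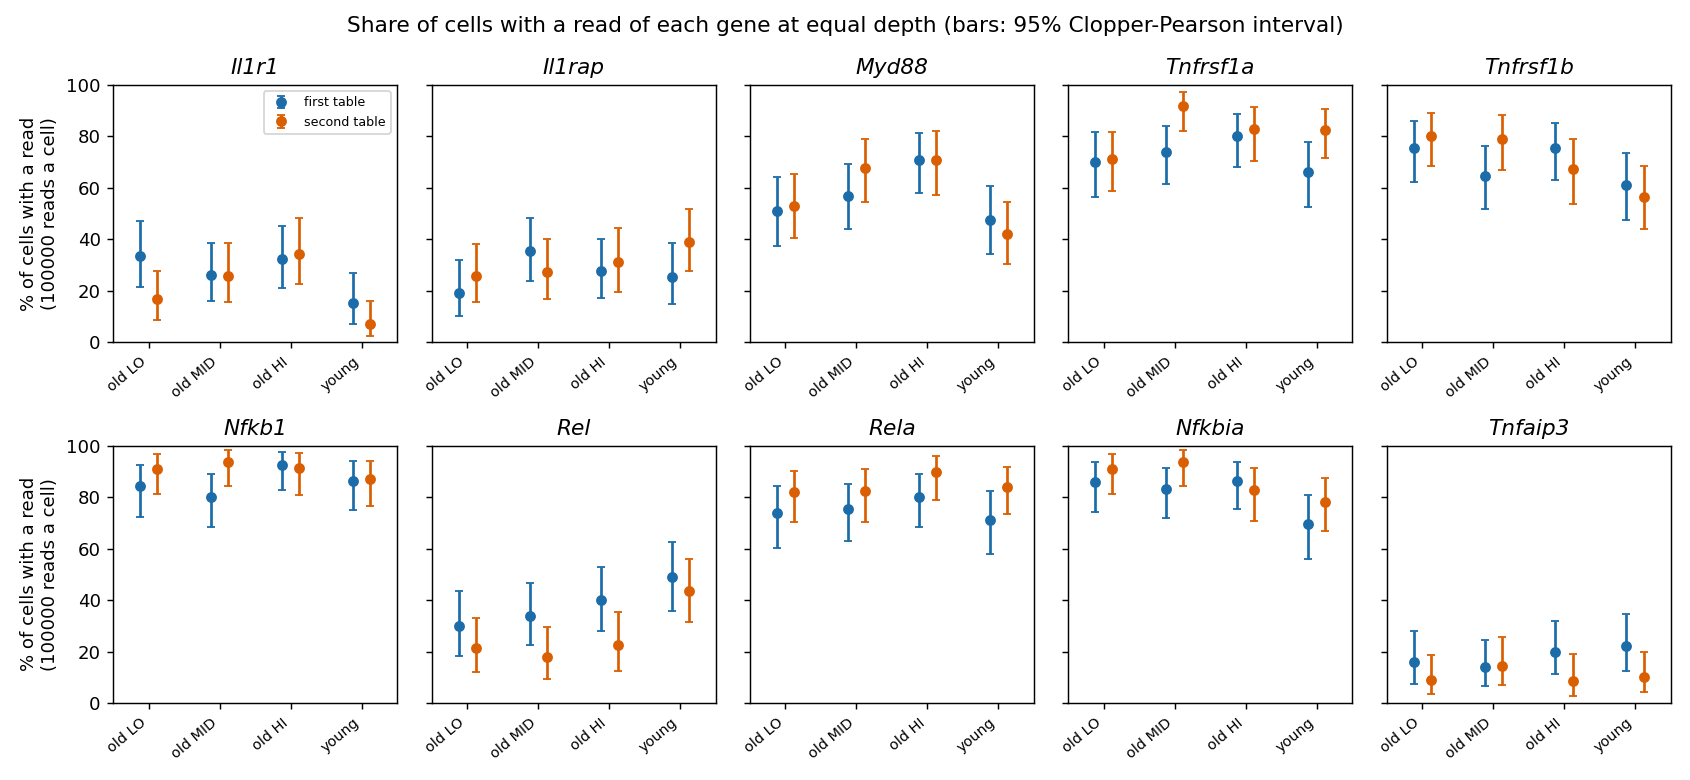
Share of cells with at least 1 read of each gene after thinning to 100000 reads a cell, for old LO, MID and HI and for young cells of the first (blue) and second (orange) table, with exact 95% intervals. Tnfrsf1a was read in 66.1% to 91.9% of the cells of a sum, Nfkbia in 69.5% to 93.5%, Rela in 71.2% to 89.7%, and Tnfaip3 in 8.62% to 22.03%.

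Among the NF-kB subunits, Rel stood apart from Nfkb1 and Rela. Rel encodes c-Rel, a subunit best known from lymphocytes (chromosome 11, 23736847 to 23770970, minus strand). It had 23.02, 30.3 and 26.7 CPM in LO, MID and HI of the first table, against 34.05 CPM in young cells. It had 13.1, 12.7 and 20.1 CPM in LO, MID and HI of the second table, against 42.4 CPM in young cells. No old sum reached a young one, and old minus young was -0.90 ± 0.09 (95% counting half-width), at percentile 2.16 of all genes. The size differed between the tables, -0.35 in the first and -1.44 in the second, whose young cells are the ones without Y-linked reads. Y-linked cells of the first table gave -0.45. A read was found in 25.2% of LO (17.8 to 33.8), 25.98% of MID (18.6 to 34.5) and 31.7% of HI cells (23.6 to 40.7), against 46.1% of young cells (37.2 to 55.1).

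Nfkb1 encodes p105, the precursor of p50 (chromosome 3, 135584655 to 135691547, minus strand). It had 160 to 226 CPM in old and 207 to 239 CPM in young sums, and old minus young was -0.17, with -0.31 and -0.04 in the tables. Rela encodes p65, the main activating subunit (chromosome 19, 5637483 to 5648130, plus strand). It had 148 to 241 CPM in old and 144.3 to 235 CPM in young sums, and old minus young was -0.03, with opposite signs in the tables. The order of the 4 groups for Nfkb1 was young, LO, HI and MID, with each neighbouring pair overlapping between tables. For Rela it was LO, young, HI and MID, of which LO was above young and HI above MID in both tables. The ranges of HI and MID, 168 and 192 against 163 and 148 CPM, did not overlap, while those of LO and young did. Nfkb1 was read in 88.7% of old and 86.7% of young cells, and Rela in 80.4% and 78.1%.

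Nfkbia and Tnfaip3 encode inhibitors that NF-kB itself induces. Nfkbia makes IkB alpha, which holds NF-kB in the cytoplasm (chromosome 12, 55489410 to 55492647, minus strand). In the first table it had 291, 328 and 227 CPM in LO, MID and HI, against 153 CPM in young cells. In the second table it had 299.8, 283 and 264 CPM in LO, MID and HI, against 200.5 CPM in young cells. All 6 old sums lay above both young sums, and HI was the lowest old group in both tables. Old minus young was 0.67 ± 0.04 (95% counting half-width), with 0.86 and 0.49 in the tables and 0.93 in the Y-linked cells of the first table. A read was found in 88.6% of LO, 88.2% of MID and 84.6% of HI cells, against 74.2% of young cells (65.7 to 81.5), and the median cell had 206, 237 and 158 CPM in LO, MID and HI, against 144.4 CPM in young cells. A single HI cell of the first table held 23.99% of the HI reads there, and without the cell with most reads in each sum HI minus young was 0.31 in place of 0.48.

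Tnfaip3 makes A20, an enzyme that edits ubiquitin chains and stops signalling from TNF and IL-1 receptors (chromosome 10, 19000910 to 19015657, minus strand). Its level depended on the table more than on the group. The first table gave 25.8, 14.3 and 20.7 CPM in LO, MID and HI, against 20.8 CPM in young cells. The second table gave 7.37, 7.80 and 9.76 CPM in LO, MID and HI, against 3.81 CPM in young cells. These levels rest on few cells, as 1 cell held between 22.8% and 50% of the reads of each sum. The highest shares were 50% in HI of the second table, 41.5% in MID of the first and 41.2% of the 85 young reads of the second. Old minus young was -0.07 and 0.94 in the 2 tables, and 12.2% to 14.6% of old and 15.6% of young cells had a read. A read of Tnfaip3 was found in 13.8% of old cells with Nfkbia and in 12.5% of those without.

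Promoter windows were searched for the consensus of the site that NF-kB dimers bind, and are printed for the 4 genes with a match. The windows, 250 bases before to 50 after the start, come from RefSeq (GRCm38.p6), where 9 of the 10 genes matched with 11 windows. Nfkb1 had no window and was not searched, and sites outside the windows were not looked for. The second Il1r1 window is at a start inside the gene. The 10-base kappa B consensus was searched on both strands, with overlapping matches counted. It was found in 4 of the 9 genes, beside 9.55% of all 27025 genes, and in 4 of their 11 windows, beside 8.46% of all 32851 windows. Rel has 2 overlapping matches from 92 and 91 bases before the start, Nfkbia 1 from 29 bases before, Tnfaip3 2, the nearer from 12 bases before, and the second Il1r1 window 1 from 232 bases before. The windows run 5′ to 3′ on the strand of the gene, with the matches in capitals. They are Rel at chr11:23770920-23771219, Nfkbia at chr12:55492598-55492897 and Tnfaip3 at chr10:19015361-19015660, all on the minus strand, and Il1r1 at chr1:40266336-40266635 on the plus strand.
Rel: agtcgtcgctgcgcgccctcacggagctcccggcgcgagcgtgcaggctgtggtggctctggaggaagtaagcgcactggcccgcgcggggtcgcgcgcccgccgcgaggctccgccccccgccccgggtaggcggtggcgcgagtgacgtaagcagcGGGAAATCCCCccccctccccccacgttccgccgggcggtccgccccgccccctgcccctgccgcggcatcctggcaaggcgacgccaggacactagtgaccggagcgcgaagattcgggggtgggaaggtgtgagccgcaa
Nfkbia: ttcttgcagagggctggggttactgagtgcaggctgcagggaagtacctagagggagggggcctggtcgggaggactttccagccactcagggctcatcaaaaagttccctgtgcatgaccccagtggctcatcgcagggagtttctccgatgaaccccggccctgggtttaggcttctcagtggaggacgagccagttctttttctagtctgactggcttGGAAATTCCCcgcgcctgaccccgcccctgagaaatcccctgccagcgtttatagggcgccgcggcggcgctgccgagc
Tnfaip3: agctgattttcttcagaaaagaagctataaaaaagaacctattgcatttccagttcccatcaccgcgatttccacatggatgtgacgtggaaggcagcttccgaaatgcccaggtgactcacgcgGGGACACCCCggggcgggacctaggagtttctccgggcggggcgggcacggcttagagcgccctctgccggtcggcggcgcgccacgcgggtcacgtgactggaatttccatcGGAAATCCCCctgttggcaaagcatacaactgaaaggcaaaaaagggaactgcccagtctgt
Il1r1: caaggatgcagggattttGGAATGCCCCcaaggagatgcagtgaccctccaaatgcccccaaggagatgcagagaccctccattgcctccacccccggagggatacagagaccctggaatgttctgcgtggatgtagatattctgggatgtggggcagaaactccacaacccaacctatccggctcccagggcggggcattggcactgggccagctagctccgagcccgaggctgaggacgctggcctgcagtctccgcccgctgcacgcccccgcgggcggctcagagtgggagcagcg
Of the genes with matches, Nfkbia was higher in all old sums and Rel was lower in all of them. Il1r1 was above the young sum of its table in 5 of 6 old sums, and Tnfaip3 had no steady difference. Tnfrsf1b, also higher in all old sums, has no match in its window. A match is a description of the letters and not of binding, and a link to the differences was not tested.

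Within the old cells, HI minus LO was small for most of the genes. The rule was met by 0 of 10 upwards and 0 downwards, beside 2.48% and 0.784% of all genes, and the median was -0.01, against 0.02 over all genes. Except for Il1r1, the differences ran between -0.27 and 0.39. That of Il1r1 was 0.78 on average but -0.65 in the first table and 2.21 in the second, of opposite sign. Myd88 was likewise 0.72 and -0.34. Only Tnfrsf1a, Rel, Rela and Nfkbia kept 1 sign in both tables, with HI lower for Tnfrsf1a (-0.27), Rela (-0.22) and Nfkbia (-0.27) and higher for Rel (0.39). HI cells held more cycling cells. Without these, among cells with at least 100000 reads, Tnfrsf1a was -0.14, Rela -0.11, Nfkbia -0.28 and Rel -0.06, with its sign turned. With cycling cells kept at that depth they were -0.26, -0.20, -0.21 and 0.42. Without cycling cells Tnfaip3 was 0.75, against 0.12 at that depth with them and 0.03 in all kept cells. Tnfrsf1b was 0.30, against 0.02 and 0.00.

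Per cell, the number of the 10 genes with a read was 5.40 ± 1.40 in LO, 5.68 ± 1.42 in MID and 5.93 ± 1.40 in HI, against 5.23 ± 1.71 in young cells (mean and SD over the cells of each group, 501 in all). Single cells had between 1 and 9 of them in the old groups and between 0 and 9 in young cells, and 0 cells had all 10. The means were 5.39, 5.43 and 6.05 in LO, MID and HI of the first table, against 5.14 in young cells, and 5.41, 5.94 and 5.81 in the second, against 5.30 in young cells. The order of MID and HI differed between the tables, and the spread between cells was wider than the differences between groups.

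The other genes of the pathway give the setting. Of the further genes in 7 lists, 74 were above the level filter, and in old minus young 0 met the rule upwards and 1 downwards, with a median of -0.06. This is 1 of 74, beside the 0.858% of all genes that met it downwards. The sign was the same in both tables for 43 of the 74 (58.1%, against 58.5% of all genes), and in HI minus LO for 44 (59.5%, against 62.03%). The gene that met the rule was Ikbke, which encodes IKK epsilon, a kinase related to the IKK complex that acts in interferon and NF-kB responses. Ikbke had 48.2, 45.99 and 49.7 CPM in LO, MID and HI of the first table, against 101.1 CPM in young cells. It had 34.4, 32.2 and 31.7 CPM in LO, MID and HI of the second table, against 66.1 CPM in young cells. The 6 old sums were all below both young sums, and old minus young was -1.03, with -1.06 and -0.99 in the tables. In HI minus LO, 0 met the rule upwards and 1 downwards, beside 0.784% of all genes, with a median of -0.13. That 1 was Junb, which encodes a subunit of the transcription factor AP-1, with 90.9 and 73.1 CPM in HI against 176.5 and 167 CPM in LO (-1.07). Without cycling cells its difference was -0.96, under the 1 asked for.

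**Figure D5:**
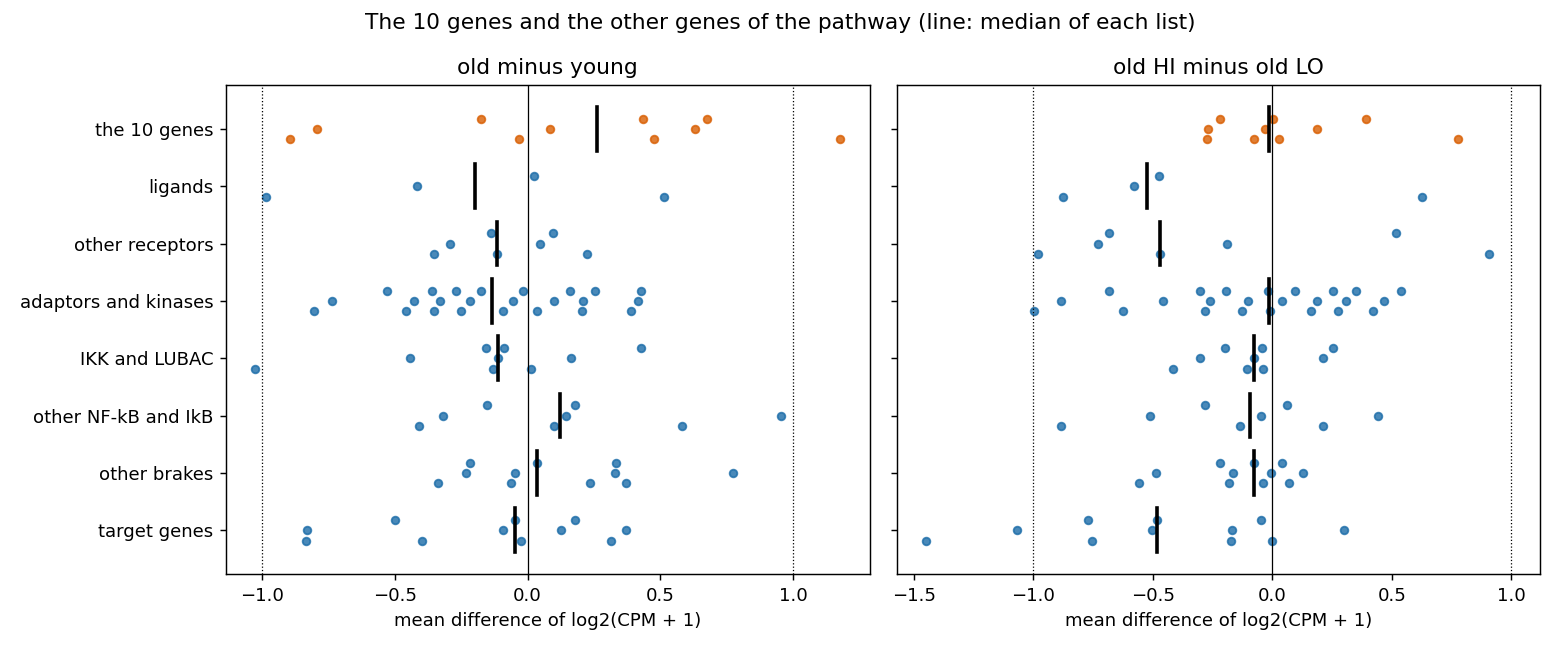
Mean difference in log2(CPM + 1) of the 10 genes (orange) and of the 74 further pathway genes above the level filter (blue), by list, for old minus young (left) and old HI minus old LO (right). Thick lines are list medians and dotted lines mark 1 and -1; list medians for age ran from -0.20 to 0.12, and the target gene median is -0.48 for HI minus LO.

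The IL-1 and TNF ligands themselves were nearly unread in the HSCs, whereas 4 of 13 ligands of the wider families were above the filter. Over all kept cells there were 5 reads of Il1a, 10 of Il1b, 7 of the antagonist Il1rn, 1 of Il33, 25 of Tnf and 9 of Lta. Among those above the filter, Ltb, which encodes the membrane ligand lymphotoxin beta, had 130, 145 and 65.1 CPM in LO, MID and HI, against 208 CPM in young cells. Its old minus young of -0.99 (-1.16 and -0.81) was just short of the rule, and HI minus LO was -0.87 (-0.36 and -1.39). HI alone had 62.3 and 67.9 CPM of Ltb in the 2 tables, against 195 and 221 CPM in young cells. Against young cells, 1 of the 4 ligands met the rule downwards in LO, 0 in MID and 1 in HI. Of all genes, 1.44%, 1.11% and 1.38% met it. Tnfsf10 (TRAIL) had an old minus young of 0.51, Tnfsf14 (LIGHT) of 0.02 and Il18 of -0.42. In HI minus LO these were -0.58 for Tnfsf10, -0.47 for Tnfsf14 and 0.63 for Il18.

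Of 18 other receptors 7 were above the filter, with an age median of -0.12. The extremes in old minus young were Ltbr (0.22) and Il1rl2 (0.10), and Tlr4 (-0.35) and Sigirr (-0.29), an inhibitory member of the IL-1 receptor family. The decoy receptor Il1r2 had 800 reads in 4.88% of cells and was below the filter. In HI minus LO the extremes were Il18rap (0.91) and Tnfrsf21 (0.52), and Il1rl2 (-0.98) and Tlr4 (-0.73). The tables disagreed in sign for Il1rl2, with 0.96 and -0.77 in old minus young and 0.39 and -2.35 in HI minus LO, and for the age value of Tlr4, with -0.72 and 0.02. None of these met the rule.

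All 24 adaptors and kinases were above the filter, with medians of -0.13 for age and -0.01 for HI minus LO. For age, Irak3 (0.43), which encodes the inhibitory IRAK-M, and Traf1 (0.41) were highest, and Irak2 (-0.80) and Traf5 (-0.74) lowest. For HI minus LO, Traf6 (0.54) and Traf2 (0.47) were highest, and Tirap (-0.996) and Traf1 (-0.88) lowest. Of the 9 genes of the IKK and linear ubiquitin complexes, Rnf31 (0.43) and Rbck1 (0.16) were highest for age beside Ikbke (-1.03) and Chuk (-0.44) at the low end. Their HI minus LO values ran from -0.41 for Tank and -0.30 for Ikbkg to 0.21 for Rnf31 and 0.25 for Chuk, the last with -0.05 and 0.56 in the tables.

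The 8 other NF-kB and IkB genes had medians of 0.12 for age and -0.09 for HI minus LO. For age, Nfkbid (0.95) and Bcl3 (0.58) were highest and Nfkbie (-0.41) and Nfkbiz (-0.32) lowest, but the value of Nfkbid was -0.52 in the first table and 2.43 in the second. For HI minus LO, Nfkbil1 (0.44) and Nfkbib (0.21) were highest and Nfkbiz (-0.88) and Nfkbid (-0.51) lowest, and only Nfkbiz of these 4 had 1 sign in both tables. The age value of Nfkbiz was 0.06 and -0.70. Of 12 other brakes 11 were above the filter, and Tnip3, which encodes an A20-binding protein, had 108.8, 151 and 97.9 CPM in LO, MID and HI, against 67.7 CPM in young cells. Its age difference was 0.77, with 0.76 and 0.78 in the tables, followed by Tnip2 at 0.37. Tnip1 (-0.34) and Usp18 (-0.23) were lowest. For HI minus LO the brakes ran from -0.56 for Tnip1 and -0.48 for Tnip2 to 0.07 for Usp18 and 0.13 for Otulin, of which the last was 0.70 and -0.44 and Usp18 -0.10 and 0.24 in the tables.

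Of 28 classical target genes only 11 were above the filter, and cytokines such as Il6, with 12 reads, and Cxcl1, with 18, were nearly unread. For age the median was -0.05, with Cflar (0.37), an inhibitor of caspase 8, and Junb (0.31, with 0.88 and -0.25 in the tables) highest and the adhesion gene Icam1 (-0.83) and Spi1 (-0.83) lowest. Icam1 had negative values in both tables, -0.76 and -0.91. In HI minus LO 10 of the 11 were negative, with a median of -0.48, against 47.7% of all genes and a median of 0.02. Of these 10, Icam1 (0.32 and -1.33), Cflar (-0.10 and 0.01) and Gbp2 (-0.33 and 0.33) had opposite signs in the tables. Without cycling cells 9 of the 11 were negative, with a median of -0.41. Gbp2 (0.27) and Sod2 (0.05) were then the positive ones, and Bcl2l1 was -0.04. In all kept cells Bcl2l1 (0.30) and Gbp2 (-0.00) were highest. Besides Junb, Zfp36, which encodes an RNA-binding protein that shortens cytokine messages, was lowest at -1.45 (-1.91 and -0.99), but 1 LO cell held 26.5% of its LO reads and it did not meet the rule.

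For the genes whose group means spanned at least 1 on the log2 scale, Il1r1 and Rel, the 3 genes with the most similar values over the 8 sums were looked up. Likeness was the mean absolute difference in log2(CPM + 1) after each table was centred. For Il1r1 (span 1.54) these were Erp27 at 0.22, Fam135a at 0.24 and Slc41a1 at 0.27. For Rel (span 1.08) they were Peli2 at 0.15, Acsl3 at 0.15 and Traf5 at 0.16. With 8 sums from 2 tables, this is a description of these libraries.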

How the data were processed

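Single sorted bone marrow cells were read by Smart-seq2 with modifications, according to the labels. The authors deposited raw counts of reads per gene in 2 tables, without molecular identifiers. The submitters' processing notes name STAR 2.7.3a, Subread, featureCounts 2.0.0, DESeq2 and mm10, without roles. Reads given to no gene were 77.3% and 74.5% of the tables and stayed out of totals. Of 46078 gene entries, 45229 matched GENCODE M21; all columns matched a labelled cell.

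Cells were kept with at least 50000 nuclear gene reads, 1000 nuclear genes and no more than 20% of mitochondrial reads; 30 of 563 failed. No doublet caller was run on these singly sorted cells. Counts were summed by group and table, and CPM scaled with TMM factors (edgeR 4.0.16, R 4.3.3). Differences of log2(CPM + 1) were taken within tables and averaged; the old value is the mean over LO, MID and HI. Comparisons used genes with a mean of at least 10 CPM and a read in at least 10% of cells. For shares, cells were thinned to 100000 reads (501 cells, with 32 shallower cells left out). Results without cycling cells leave out the same 32 cells. Work in Python 3.11.15 used pandas 2.3.3, NumPy 2.4.6, matplotlib 3.10.9 and SciPy 1.17.1.

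No label names an animal, so no test was run. Exact 95% Poisson and Clopper-Pearson intervals and half-widths describe counting error alone, and copies of 1 molecule are counted as separate reads. In summed cells, more cells with a transcript and more transcript per cell are told apart only by the shares given. On simulated sums with Poisson noise, the levels, the differences and the size and level conditions of the rule were checked. The cell filter, thinning, TMM factors, shares of cells, the single-cell condition and the spread between cells were not part of that check. The 10 genes, the lists and the size rule were chosen with earlier results of these data known. Named pathway genes are those that met the rule and the 2 highest and 2 lowest above the filter in old minus young and in HI minus LO; Il1r2, Il6, Cxcl1 and the near-silent ligands were named after their values were seen.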

Additional observations from a re-analysis of the deposited data

How the results depend on the processing

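Old minus young kept its sign in all 15 alternatives for Il1r1, Il1rap, Myd88, Tnfrsf1b, Nfkb1, Rel and Nfkbia, in 14 for Tnfrsf1a and in 13 each for Rela and Tnfaip3. Upwards and downwards, 140 and 92 of all genes met the size rule for old minus young and 266 and 84 for HI minus LO. For old minus young this was 93 and 37 with a pseudocount of 10, 63 and 14 with a level filter of 50 CPM and 25% of cells, 236 and 187 in the first table alone, 245 and 205 in the second table alone, and 265 upwards in Y-linked cells of the first table. For HI minus LO it was 33 downwards with a pseudocount of 10, 82 upwards without cycling cells, 81 and 22 with the stricter filter, 258 downwards in the first table, 519 and 243 in the second, and 467 and 261 in Y-linked cells. Of the 10 genes, the 1 that met the rule upwards in HI minus young was 0 with a pseudocount of 10, without the cell with most reads, with the stricter filter, in the first table and in Y-linked cells. Downwards, where no gene met it otherwise, 1 (Il1rap) did in HI minus young with a pseudocount of 0.1 and without cycling cells, in LO minus young with at least 100000 reads or thinning, and in old minus young without cycling cells. In LO minus young 2 (Il1rap and Rel) did without cycling cells, and 1 (Rel) without the cell with most reads and in the second table. In the second table alone 2 (Il1rap and Rel) did in old, MID and HI minus young, and 1 (Il1r1) upwards in HI minus LO. Upwards, 1 did in old minus young after thinning (Il1r1), and in the first table and its Y-linked cells in LO minus young (Il1r1) and MID minus young (Nfkbia). The cause was not tested. Taking log2 of the mean old CPM, an alternative added after seeing the data, gave 1.32 for Il1r1 in place of 1.18. Over all alternatives, old minus young ran from 0.71 to 1.67 for Il1r1, 0.46 to 0.80 for Tnfrsf1b, 0.49 to 0.93 for Nfkbia, -1.08 to -0.50 for Il1rap and -1.44 to -0.35 for Rel. No paired analysis was possible because the labels tie no cell of one group to a cell of another. The fewest reads in a sum were between 85 (Tnfaip3) and 263 (Rel) for Il1r1, Il1rap, Rel and Tnfaip3, and at least 1145 for the other genes.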
